A study of Mus musculus with 24 samples.

Results

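The 21 thymic lymphomas of the series were ranked by their level of macrophage transcripts, and the 7 highest (macrophage-high) were set against the 7 lowest (macrophage-low), so that 14 of the 24 libraries entered the comparison. The groups were chosen by measured values of these libraries. The ranking value, called the macrophage score here, was the mean of log2(CPM + 1) of Cd68, Csf1r, Adgre1, C1qa, C1qb and C1qc, where CPM is the count of a gene per 1000000 counts of its library. The middle 7 lymphomas stayed out of the fit and are shown as levels, beside 3 libraries of normal thymus. All lymphomas came from female B6C3F1 mice, a hybrid strain, which had received whole-body carbon ions at weekly intervals, in 4 doses of 1.6 Gy from 4 to 5 weeks of age. Normal thymus carries the same treatment label, and what 7W in its titles stands for is not said. Macrophage-high, middle and macrophage-low lymphomas and normal thymus share strain and sex, and RNA of all 4 came from cell suspensions, followed by poly(A) sequencing. Lymphomas are named by their library numbers. Nothing in the labels says that each library came from a separate mouse, so a p-value here speaks of the spread among these libraries, which may be technical.

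Macrophages are phagocytes that, in the thymus, take up the many thymocytes that die during selection and digest them in lysosomes. Csf1r is the receptor for the growth factors that keep macrophages alive, Cd68 is a glycoprotein of their lysosomes, Adgre1 encodes the F4/80 surface antigen, and C1qa, C1qb and C1qc encode the chains of C1q, the recognition protein of the classical complement pathway. In lymphomas, macrophages live among the malignant cells, and their RNA enters a library made from the whole suspension. In such bulk libraries, fewer macrophages and less RNA per macrophage cannot be told apart.

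The score was 4.72 to 5.97 in the macrophage-high lymphomas, 4.33 to 4.66 in the middle lymphomas, 3.80 to 4.33 in the macrophage-low lymphomas and 3.07 to 3.55 in normal thymus. In falling order of score, the macrophage-high group was made of lymphomas 19, 20, 17, 18, 9, 10 and 7, and the macrophage-low group of lymphomas 35, 13, 21, 14, 12, 4 and 31. The cuts fell between close neighbours. Lymphoma 7, at 4.7241, was just inside the macrophage-high group and lymphoma 16, at 4.6631, just outside it. Lymphoma 35, at 4.3261, was just inside the macrophage-low group and lymphoma 32, at 4.3319, just outside it. Because the 6 genes chose the groups, their values are a description. Levels of single genes are given from here on in CPM scaled by TMM, a correction for the make-up of each library, as the lowest, median and highest of a group's 7 lymphomas. Those of C1qa were 37.7, 56.2 and 79.4 CPM in macrophage-high lymphomas, against 14.8, 19.4 and 27.4 CPM in macrophage-low lymphomas. For Csf1r they were 15.4, 27.4 and 47.4 CPM in macrophage-high lymphomas, against 8.86, 12.3 and 15.7 CPM in macrophage-low lymphomas. Cd68 had 27.6, 61.6 and 80.9 CPM in macrophage-high lymphomas, against 20.6, 27 and 32.3 CPM in macrophage-low lymphomas. Every lymphoma, in both groups, had a higher score than the 3 thymus libraries.

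**Figure D1:**
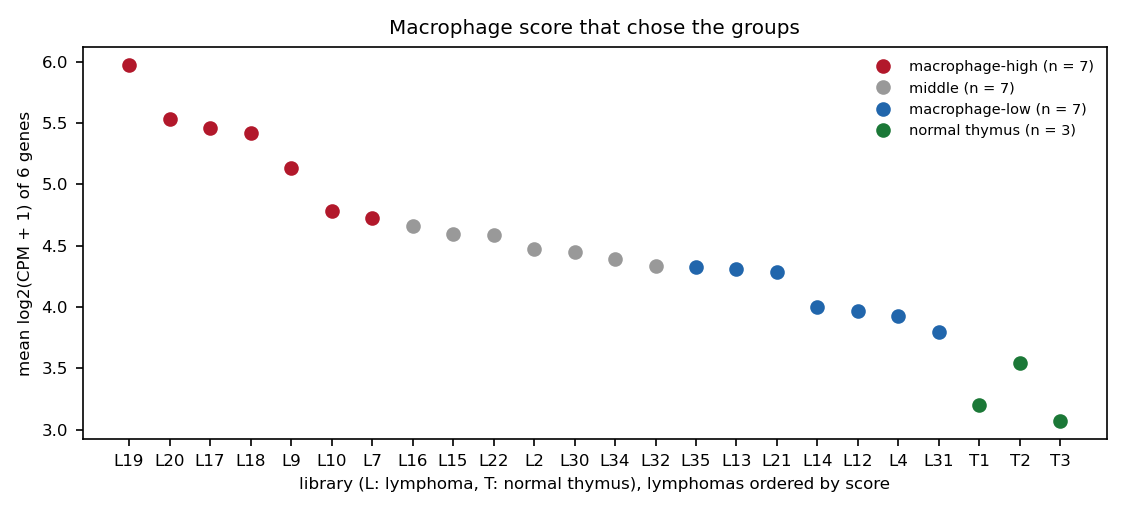
Macrophage score, the mean log2(CPM + 1) of the 6 ranking genes, in each of the 24 libraries (y axis), with lymphomas in falling order from left to right and normal thymus at the right end. Macrophage-high lymphomas span 4.72 to 5.97, macrophage-low lymphomas 3.80 to 4.33 and thymus 3.07 to 3.55, with the middle group next to both edges.

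The libraries were of like depth in both groups, with 15.8 to 36.6 M counts in macrophage-high and 15 to 30.8 M in macrophage-low lymphomas (M, 1000000). The means differed by 2.04 M (two-sided exact permutation test over 3432 arrangements, p = 0.576). The middle lymphomas had 16 to 32.6 M and thymus 24.5 to 27.5 M. Between 14191 and 15410 genes had a count in macrophage-high lymphomas, against 13864 to 15171 in macrophage-low lymphomas. More genes thus had a count in most macrophage-high lymphomas, with medians of 15133 against 14216. The means were 14978 ± 396 in macrophage-high and 14256 ± 453 in macrophage-low lymphomas (SD, n = 7 each). The top of the macrophage-low range was lymphoma 35. This difference and its part in the results were not tested. The Ikzf1 mutation set, taken from the headers of 2 filtered tables that the authors deposited, was balanced, with 4 mutated and 3 unmutated lymphomas in each group (two-sided Fisher's exact test, p = 1). A pair of chromosome features of the lymphoma cells were compared as the median log2 ratio to the mean of thymus. Over 57 genes of the first 10 Mb of chromosome 11 it was -0.20 ± 0.40 in macrophage-high and -0.35 ± 0.48 in macrophage-low lymphomas (SD, n = 7 each, exact permutation p = 0.435). Over 425 genes of chromosome 15 it was 0.15 ± 0.25 in macrophage-high and 0.09 ± 0.26 in macrophage-low lymphomas (SD, n = 7 each, exact permutation p = 0.647). Neither difference was larger than the spread between lymphomas.

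Lymphoma 35 stood apart within the macrophage-low group. Over the 10 B-cell marker genes its mean level, in log2(CPM + 1), was 4.55, the highest of the 21 lymphomas, while the other macrophage-low lymphomas had levels between 0.43 and 1.53. It also had the highest mean level of the 21 for the natural killer (NK) list, at 3.91, for the checkpoint list, at 3.77, and for the list of inflammatory activation, and the highest of its own group for the interferon, chemokine and MHC class II lists. It lay inside the macrophage-high range for macrophage transcription factors (3.51), complement (2.65) and alternative activation (3.29). The same held for the iron and haem, chemokine and myeloid growth factor lists. It lay below that range for macrophage identity markers (2.51), Fc receptors, efferocytosis, lysosome and lipid handling. It held 4.74 CPM of Oas1a, an interferon-induced sensor of double-stranded RNA, against at most 0.998 CPM in the other macrophage-low lymphomas. Where leaving it out moved a count over all genes, or the median or edgeR calls of a gene list, by more than 1.5 times, both values are given. Because lymphoma 35 had the highest macrophage score of its group, leaving it out also widens the score difference between the groups. Of the runs with 1 lymphoma left out, this one gave the most higher genes, 37. Values without lymphoma 35 are therefore a description and no independent support.

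Between the macrophage-high and macrophage-low lymphomas, 9 genes rose and 2 fell among 11816 genes tested outside the 6 ranking genes (edgeR quasi-likelihood test, Benjamini-Hochberg adjusted p under 0.05). These are 0.0762% and 0.0169% of the genes tested. At an unadjusted p under 0.05, 796 genes were higher (6.74%) and 738 lower (6.25%). The genes that rose were Mpeg1, Lgals3, Lgmn, Ctsk, Adam8, Cfp, Anxa1, Ccrl2 and Cdhr4, most of them genes that macrophages are known to express. Those that fell were Atp13a3, which encodes a P-type ATPase that transports polyamines, and Casc5, which encodes a scaffold protein of the kinetochore. Genes whose counts were too low for a test in these 14 lymphomas are given by level alone. A fold change is that of macrophage-high over macrophage-low lymphomas. After the ± sign stands an approximate standard error (SE) on the log2 scale. It is the absolute log2 fold change divided by the square root of the F statistic of the test. The calls lay close to the threshold. DESeq2, which was run without the edgeR filter on low counts, called 304 genes higher (1.73%) and 139 lower (0.791%) of 17578 with a p. Run on the same 11816 genes, an alternative chosen after seeing the data, it called 224 higher (1.9%) and 128 lower (1.08%). Both of these sets held all 9 and both lower genes. Limma-voom called none of the 11816, with 1442 genes at an unadjusted p under 0.05. No gene was called higher when 1 of lymphomas 17, 18, 20, 4, 12, 13, 14, 21 or 31 was left out, with 1250 to 1663 genes at an unadjusted p under 0.05. The number was 2 without lymphoma 19, 3 without lymphoma 9, 18 without lymphoma 10, 20 without lymphoma 7 and 37 without lymphoma 35. Of the lower calls, 4 were made without lymphoma 35 and 4 without lymphoma 7, 1 without lymphoma 17, and none without any other lymphoma. The 37 genes higher without lymphoma 35 (0.311% of 11903 tested, with 0.0336% lower) included all 9, and 17 of them were in the macrophage lists. Those lists then held 191 of the genes tested. At an unadjusted p under 0.05, 1064 genes (8.94%) were then higher and 922 (7.75%) lower.

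Mpeg1, which encodes perforin-2, a pore-forming protein of phagocytes, lies on GRCm38 at chromosome 19, 12460779 to 12465283. Its lowest, median and highest levels were 81.6, 101 and 187 CPM in macrophage-high lymphomas, against 40.2, 47.6 and 69 CPM in macrophage-low lymphomas. Every macrophage-high lymphoma was above every macrophage-low lymphoma. The means were 112 ± 35.3 CPM in macrophage-high and 51.1 ± 11.6 CPM in macrophage-low lymphomas (SD, n = 7 each), a 2.2-fold difference (log2 fold change 1.14 ± 0.19, edgeR adjusted p = 0.0394). The middle lymphomas had a median of 67.4 CPM, between the groups, and thymus had 27.4 to 31.1 CPM.

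Both of the digestive enzymes that rose are cysteine proteases of the lysosome. Lgmn (chromosome 12, 102394084 to 102439813), which encodes legumain, an enzyme that cuts after asparagine, had lowest, median and highest levels of 31.2, 55.2 and 91.6 CPM in macrophage-high lymphomas, against 21.4, 25.2 and 34.7 CPM in macrophage-low lymphomas. All macrophage-high lymphomas but lymphoma 7 exceeded every macrophage-low lymphoma, and the fold was 2.32 (log2 fold change 1.21 ± 0.21, edgeR adjusted p = 0.0394). Ctsk (chromosome 3, 95499256 to 95509362), which encodes cathepsin K, best known for digesting collagen in bone, had 2.91, 5.1 and 18.2 CPM in macrophage-high lymphomas, against 0.491, 1.32 and 2.1 CPM in macrophage-low lymphomas. The groups did not overlap, and the fold was 6.29 (log2 fold change 2.65 ± 0.47, edgeR adjusted p = 0.0485). Ctsk reached its highest level in lymphoma 17 and was also above the macrophage-low range in 4 of the 7 middle lymphomas, while thymus had 1.06 to 1.42 CPM.

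Lgals3 (chromosome 14, 47367751 to 47386160) encodes galectin-3, a sugar-binding lectin abundant in macrophages. It had lowest, median and highest levels of 36.3, 81.9 and 117 CPM in macrophage-high lymphomas, against 13.6, 21.6 and 35.6 CPM in macrophage-low lymphomas, with no overlap and a fold of 3.03 (log2 fold change 1.60 ± 0.28, edgeR adjusted p = 0.0485). In thymus it had 8.47 to 12.9 CPM. Anxa1 (chromosome 19, 20373428 to 20390944), a phospholipid-binding protein that takes part in the uptake of dying cells, had 3.9, 13.5 and 17.6 CPM in macrophage-high lymphomas, against 2, 3.19 and 4.82 CPM in macrophage-low lymphomas (fold 3.65, log2 fold change 1.87 ± 0.33, edgeR adjusted p = 0.0485). The exception to its separation was lymphoma 10, which lay within the macrophage-low range. Cfp (chromosome X, 20925454 to 20931555) encodes properdin, which stabilises the enzyme complex of the alternative complement pathway. It had 20.3, 29.8 and 38.2 CPM in macrophage-high lymphomas, against 11.9, 15.1 and 17.9 CPM in macrophage-low lymphomas, again without overlap, and a fold of 2 (log2 fold change 1.00 ± 0.16, edgeR adjusted p = 0.0394). Unlike Lgals3, its thymus levels reached into the macrophage-high range, at 14.4 to 24.4 CPM.

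Adam8 (chromosome 7, 139978932 to 139992562), which encodes a membrane-bound metalloprotease of leukocytes, had lowest, median and highest levels of 16.6, 23.4 and 38.9 CPM in macrophage-high lymphomas, against 8.28, 11.2 and 11.8 CPM in macrophage-low lymphomas (fold 2.44, log2 fold change 1.29 ± 0.22, edgeR adjusted p = 0.0394). Its macrophage-low lymphomas lay in a narrow band, and the middle lymphomas had a median of 11.1 CPM, at the level of the macrophage-low group. The remaining genes that rose averaged under 10 CPM and were named after their values were seen. Ccrl2 (chromosome 9, 111054486 to 111057519), which encodes a receptor that binds the chemoattractant chemerin, had 0.929, 1.63 and 3.18 CPM in macrophage-high lymphomas, against 0.262, 0.459 and 0.785 CPM in macrophage-low lymphomas (log2 fold change 1.92 ± 0.32, edgeR adjusted p = 0.0394). Cdhr4 (chromosome 9, 107992497 to 107999684), a cadherin-related gene, had 1.92, 5.72 and 7.18 CPM in macrophage-high lymphomas, against 0.849, 1.28 and 1.62 CPM in macrophage-low lymphomas (log2 fold change 1.97 ± 0.32, edgeR adjusted p = 0.0394). Cdhr4 was lowest in lymphoma 19, the lymphoma with the highest macrophage score of all, and the middle lymphomas, at a median of 1.66 CPM, lay near the macrophage-low group.

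Casc5 had lowest, median and highest levels of 52.9, 85.4 and 109.9 CPM in macrophage-high lymphomas, against 120.1, 157 and 188 CPM in macrophage-low lymphomas. The groups did not overlap, and the fold was 0.526 (log2 fold change -0.93 ± 0.16, edgeR adjusted p = 0.0485). Thymus, at 45.4 to 115 CPM, overlapped the macrophage-high range and lay below every macrophage-low lymphoma. Atp13a3 (chromosome 16, 30312423 to 30405975) had 277, 324 and 446 CPM in macrophage-high lymphomas, against 474, 539.8 and 629 CPM in macrophage-low lymphomas, also without overlap, and a fold of 0.621 (log2 fold change -0.69 ± 0.12, edgeR adjusted p = 0.0394). Of the middle lymphomas, 2 had Atp13a3 levels within the macrophage-high range and 5 lay above it.

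**Figure D2:**
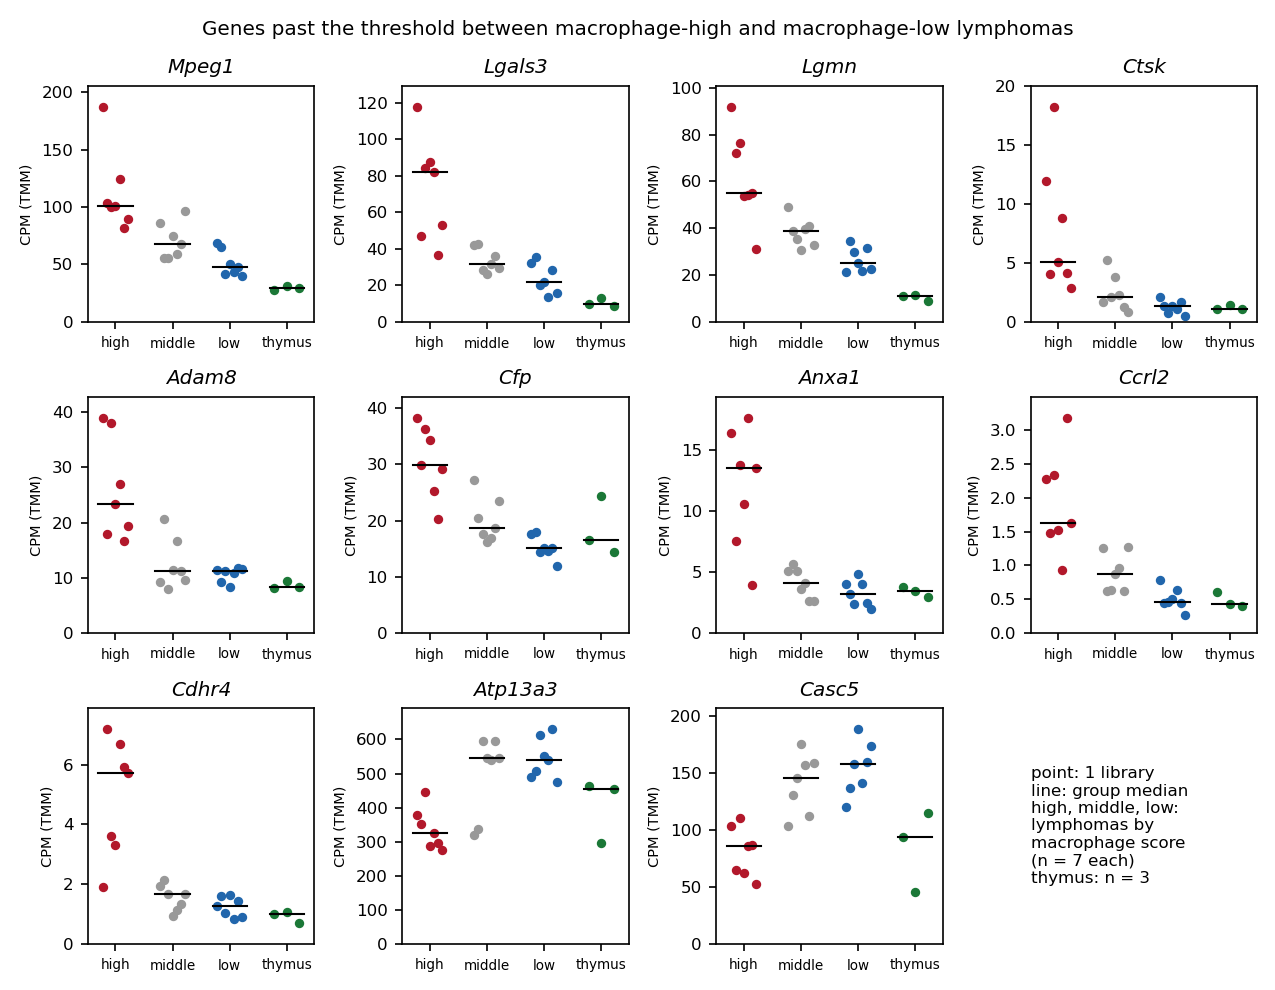
Levels, in CPM scaled by TMM (y axes, from 0), of the 11 genes past the threshold in each library of the macrophage-high, middle and macrophage-low lymphomas (7 each) and normal thymus (3). Points are libraries and lines are group medians, and for Mpeg1, Lgals3, Ctsk, Adam8, Cfp, Ccrl2, Cdhr4, Atp13a3 and Casc5 the macrophage-high and macrophage-low points do not overlap.

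Without a model, 36 genes (0.305% of those tested) were higher in every macrophage-high than in every macrophage-low lymphoma, and 22 genes (0.186%) were lower. Set against the 6 macrophage-low lymphomas other than lymphoma 35, 104 genes (0.874% of 11903) were higher in every macrophage-high lymphoma and 96 (0.807%) lower. Of the 36 genes, 11 were members of the macrophage lists, which hold 189 of the 11816 genes tested. Those lists share a cell type with the 6 ranking genes, which chose the groups. In 33 of the 36 the median of the middle lymphomas lay between those of the 2 groups, and in 24 the median of thymus was below that of the macrophage-low lymphomas. Besides the called genes, they included Sirpa, the receptor through which macrophages read the don't-eat-me signal CD47, and Slc11a1, which encodes a metal transporter of the phagosome. Sirpa had lowest, median and highest levels of 24.7, 39.3 and 68.8 CPM in macrophage-high lymphomas, against 10.6, 18.2 and 21.2 CPM in macrophage-low lymphomas (log2 fold change 1.26 ± 0.23, edgeR adjusted p = 0.055). Pirb, which encodes an inhibitory receptor for MHC class I, had 5.11, 6.46 and 10.5 CPM in macrophage-high lymphomas, against 2.08, 3.82 and 4.74 CPM in macrophage-low lymphomas (log2 fold change 1.09 ± 0.27, edgeR adjusted p = 0.124). Cd300ld, of a family of lipid-binding receptors of myeloid cells, had 0.694, 1.4 and 3.21 CPM in macrophage-high lymphomas, against 0.295, 0.541 and 0.59 CPM in macrophage-low lymphomas (log2 fold change 1.58 ± 0.39, edgeR adjusted p = 0.124). Sirpa, Pirb and Cd300ld thus had separate ranges in the 2 groups without passing the threshold with edgeR. Without lymphoma 35 Sirpa passed, with a log2 fold change of 1.32 (edgeR adjusted p = 0.0431), and Pirb had 1.18 (edgeR adjusted p = 0.07). Of the 26 alternative settings, Sirpa passed in 8 and Pirb in 4. Cd300ld was named after its values were seen.

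The 22 genes lower in every macrophage-high lymphoma included Atp13a3 and Casc5, and the others given here were named after their values were seen. They are single genes, and no group of the 22 was tested. Cenpf, a kinetochore protein, had 58.1, 89.3 and 107 CPM in macrophage-high lymphomas, against 111, 151 and 163 CPM in macrophage-low lymphomas (log2 fold change -0.71 ± 0.14, edgeR adjusted p = 0.0744). Cep192, a protein of the centrosome, had 95.3, 131 and 164 CPM in macrophage-high lymphomas, against 166, 195 and 214 CPM in macrophage-low lymphomas (log2 fold change -0.53 ± 0.11, edgeR adjusted p = 0.076). Ckap5, which promotes microtubule growth, Anln, a cytokinesis protein, and the mitotic kinesins Kif20a and Kif20b were also among the 22, with log2 fold changes of -0.49, -0.50, -0.62 and -0.74 and edgeR adjusted p of 0.109, 0.128, 0.159 and 0.567. So were Cltc, the clathrin heavy chain, and Arcn1, a subunit of the COPI vesicle coat, with log2 fold changes of -0.32 and -0.30 (edgeR adjusted p = 0.165 and 0.128). None of the 22 was in any of the gene lists used here, the proliferation list included. In 20 of the 22, the median of thymus was below that of the macrophage-low lymphomas, and in 21 the middle lymphomas lay between.

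PU.1, encoded by Spi1, is the transcription factor on which macrophage development depends, and many macrophage promoters hold its binding motif. RefSeq promoters (GRCm38.p6, 250 bases before to 50 after the start of a transcript) were searched on both strands for GAGGAAGT, a PU.1-type motif, TCACGTGA, the motif of the lysosomal regulators TFEB and MITF, and TGACTCA, the AP-1 motif. All 9 genes that rose had a promoter entry, with 12 promoters in all, and none of the 12 held any of the 3. Of the 36 genes higher in every macrophage-high lymphoma, 29 had an entry, and these had 39 promoters. The PU.1-type motif was in 4 of the 39 (10.3%), against 3.2% of all 32851 promoters and 3.23% of the promoters of tested genes. The AP-1 motif was in 2 of the 39 (5.13%), against 5.2% of all promoters and 3.58% of those of tested genes. The TFEB motif was in none, against 0.974% and 1.79%. Of the 22 genes lower in every macrophage-high lymphoma, 14 had an entry, with 16 promoters. The PU.1-type motif was in 1 of the 16 (6.25%), the TFEB motif in 2 (12.5%) and the AP-1 motif in none. A match of letters is a description and says nothing about binding. The 4 of the 39 promoters with the PU.1-type motif belonged to Pirb, Cd300ld and, with 1 site in a pair of overlapping windows, Cttnbp2nl. The 250 bases before the start are shown for Pirb (chr7:3720383-3720632, minus strand) and Cd300ld (chr11:114989887-114990136, minus strand), because they hold the motif, and for Mpeg1 (chr19:12460520-12460769, plus strand), the 1 macrophage identity marker past the threshold, which holds none of the 3. The sequences run 5′ to 3′ in the direction of the gene, with the PU.1-type motif in capitals.
Pirb: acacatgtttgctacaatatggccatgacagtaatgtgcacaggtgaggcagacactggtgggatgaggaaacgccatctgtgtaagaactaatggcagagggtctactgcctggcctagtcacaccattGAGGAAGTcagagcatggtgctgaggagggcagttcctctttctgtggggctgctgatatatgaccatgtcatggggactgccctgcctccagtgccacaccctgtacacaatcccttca
Cd300ld: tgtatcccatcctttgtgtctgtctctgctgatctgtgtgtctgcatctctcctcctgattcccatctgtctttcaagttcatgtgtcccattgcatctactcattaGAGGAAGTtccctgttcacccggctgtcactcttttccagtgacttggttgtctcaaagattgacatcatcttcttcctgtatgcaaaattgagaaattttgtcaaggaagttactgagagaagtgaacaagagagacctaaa
Mpeg1: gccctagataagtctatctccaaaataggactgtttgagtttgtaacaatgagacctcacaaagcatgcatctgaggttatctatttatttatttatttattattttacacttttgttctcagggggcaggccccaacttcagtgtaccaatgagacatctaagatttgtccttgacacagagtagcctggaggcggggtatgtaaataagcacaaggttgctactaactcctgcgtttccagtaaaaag

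The gene lists were chosen with earlier results of these data known. Macrophage genes that vary with the 6 ranking genes differ between the groups by the choice of groups. Counts in the macrophage lists are therefore a description and no independent support. Over 12 macrophage lists with 189 tested genes, 6 rose (Mpeg1, Lgmn, Ctsk, Lgals3, Anxa1 and Cfp) and none fell. Of the 189, 172 had a positive fold change, with a median on the log2 scale of 0.84, and 95 were higher and none lower at an unadjusted p under 0.05. Over all 11816 tested genes 49.7% were positive and the median was near 0. At an unadjusted p under 0.05, 6.74% of them were higher and 6.25% lower. DESeq2 called 1.73% of genes with a p higher and 0.791% lower. Each such count in a list, here and below, is to be read beside these shares. Lists of other cell types had 83 tested genes with a median of 0.47. None of them passed with edgeR, and 22 were higher and 2 lower at an unadjusted p under 0.05. Lists of the lymphoma cells and their state had 184 tested genes, of which 92 were positive. None of those passed with edgeR, and 20 were higher and 14 lower at an unadjusted p under 0.05. Without lymphoma 35, 17 of 191 tested macrophage-list genes rose, 171 were positive (median 0.99) and 115 were higher at an unadjusted p under 0.05. DESeq2 called 58 macrophage-list genes higher, beside its 1.73% of all genes with a p, and 57 when run on the 11816 genes, beside 1.9%. Differences between lists were not tested.

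**Figure D3:**
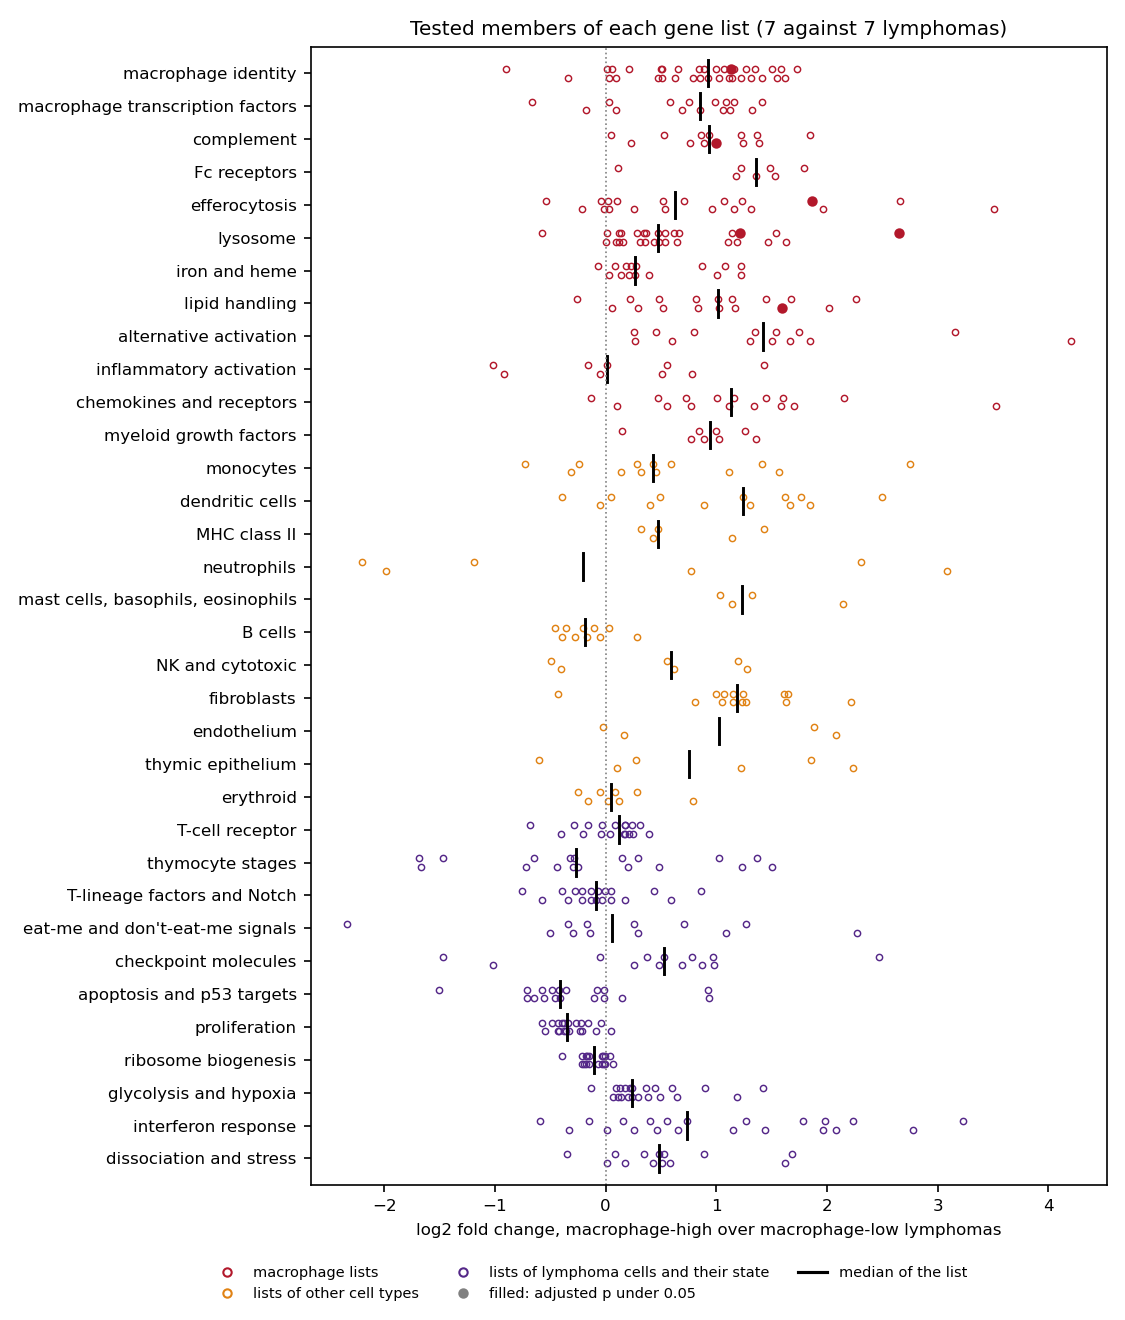
Log2 fold change of macrophage-high over macrophage-low lymphomas (x axis) for every tested member of 34 gene lists (y axis), with filled points for genes with an edgeR adjusted p under 0.05 and a bar at the list's median. The 6 filled points are all in macrophage lists, whose medians run between 0.01 and 1.42, while the proliferation list lies left of 0 in 19 of 20 genes.

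Of the 40 macrophage identity markers, 35 were tested and 33 of these were positive, with a median log2 fold change of 0.92. Mpeg1 alone passed with edgeR, 21 were higher at an unadjusted p under 0.05 and DESeq2 called 13. With edgeR, 3 passed without lymphoma 7, 3 without lymphoma 10 and 2 without lymphoma 35. The summed level of the 40 was 407 to 994 CPM in macrophage-high and 264 to 561 CPM in macrophage-low lymphomas, and 188 to 220.3 CPM in thymus. Ms4a7, a membrane protein of mature macrophages, had 4.27, 11.3 and 18.3 CPM in macrophage-high lymphomas, against 1.67, 3.9 and 4.16 CPM in macrophage-low lymphomas (log2 fold change 1.73 ± 0.36, edgeR adjusted p = 0.0754). Mrc1, the mannose receptor, had 7, 20.6 and 45.7 CPM in macrophage-high lymphomas, against 5.57, 8.13 and 10.4 CPM in macrophage-low lymphomas (log2 fold change 1.50 ± 0.32, edgeR adjusted p = 0.076). Mertk, a receptor kinase through which macrophages bind dying cells, had 3.53, 7.11 and 12.5 CPM in macrophage-high lymphomas, against 2.28, 3.31 and 6.05 CPM in macrophage-low lymphomas (log2 fold change 1.07 ± 0.32, edgeR adjusted p = 0.173). Above every macrophage-low lymphoma were 7 of the 7 macrophage-high lymphomas for Ms4a7, 6 for Mrc1 and 5 for Mertk. Ms4a7, Ctss and Gpnmb were named after their values were seen.

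Several macrophage genes, chosen with earlier results known, lay in overlapping ranges. Cd163, the scavenger receptor for haemoglobin, had 0.307, 0.574 and 1.79 CPM in macrophage-high lymphomas, against 0.0416, 0.72 and 1.44 CPM in macrophage-low lymphomas (log2 fold change 0.21 ± 0.60, edgeR adjusted p = 0.925). Marco, a scavenger receptor, had 0.307, 1.04 and 1.87 CPM in macrophage-high lymphomas, against 0.459, 0.722 and 2.31 CPM in macrophage-low lymphomas (log2 fold change -0.34 ± 0.50, edgeR adjusted p = 0.834). Cx3cr1, the fractalkine receptor, had 1.36, 2.42 and 3.53 CPM in macrophage-high lymphomas, against 0.519, 1.39 and 4.16 CPM in macrophage-low lymphomas (log2 fold change 0.47 ± 0.39, edgeR adjusted p = 0.667). For Cd163, Marco and Cx3cr1 the ranges of the groups overlapped over most of their length. Cd5l, a protein that resident macrophages secrete, named after its values were seen, overlapped as well, with 4.96, 19.3 and 51.6 CPM in macrophage-high lymphomas, against 7.2, 13.4 and 62.2 CPM in macrophage-low lymphomas (log2 fold change 0.01 ± 0.56, edgeR adjusted p = 0.996). Timd4, Vsig4 and Clec4f, which mark resident macrophages of several tissues, were at medians under 1 CPM in both groups and were not tested. Trem2, a lipid-sensing receptor, was also too low to be tested, with 0.195, 1.05 and 1.91 CPM in macrophage-high and 0.0713, 0.11 and 0.393 CPM in macrophage-low lymphomas.

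Of 15 macrophage transcription factors, 13 were positive (median 0.86). No member passed with edgeR, 7 were higher at an unadjusted p under 0.05 and DESeq2 called 5. Spi1 had lowest, median and highest levels of 4.43, 7.45 and 10.6 CPM in macrophage-high lymphomas, against 2.62, 3.24 and 6.92 CPM in macrophage-low lymphomas (log2 fold change 1.06 ± 0.27, edgeR adjusted p = 0.128). The top of its macrophage-low range was lymphoma 35, and without that lymphoma Spi1 passed, with a log2 fold change of 1.29 (edgeR adjusted p = 0.0408). Spi1 passed in 6 of the 26 alternative settings. Cebpa, a factor of early myeloid cells, had 1.92, 2.96 and 4.45 CPM in macrophage-high lymphomas, against 0.758, 1.54 and 2.08 CPM in macrophage-low lymphomas (log2 fold change 1.09 ± 0.28, edgeR adjusted p = 0.129). Id2, an inhibitor of E proteins that many cell types express, had 48.4, 128 and 371 CPM in macrophage-high lymphomas, against 37.8, 56.6 and 80.03 CPM in macrophage-low lymphomas (log2 fold change 1.32 ± 0.38, edgeR adjusted p = 0.166). Its highest level was in lymphoma 7.

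Fc receptors, which bind antibody-coated particles, were positive in 7 of 7 members (median 1.36). With edgeR none passed, 6 were higher at an unadjusted p under 0.05 and DESeq2 called 4. Without lymphoma 7, 2 passed with edgeR. Fcer1g, their shared signalling chain, had lowest, median and highest levels of 6.41, 16.2 and 39.1 CPM in macrophage-high lymphomas, against 3.4, 6.6 and 7.31 CPM in macrophage-low lymphomas (log2 fold change 1.79 ± 0.38, edgeR adjusted p = 0.076). Fcgr3 had 7.25, 12.3 and 32.9 CPM in macrophage-high lymphomas, against 3.83, 5.94 and 6.62 CPM in macrophage-low lymphomas (log2 fold change 1.49 ± 0.31, edgeR adjusted p = 0.0754). Fcgrt, which recycles antibody inside cells, had 4.34, 12.2 and 19.4 CPM in macrophage-high lymphomas, against 2.79, 4.88 and 5.53 CPM in macrophage-low lymphomas (log2 fold change 1.36 ± 0.29, edgeR adjusted p = 0.0754). For Fcgr3 the groups did not overlap, and for Fcer1g and Fcgrt 6 and 6 of the 7 macrophage-high lymphomas were above every macrophage-low lymphoma. In the complement list, 13 of 13 tested members were positive (median 0.94). Cfp alone passed with edgeR, which called 3 without lymphoma 35, and DESeq2 called 5.

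For the uptake of dying cells, the efferocytosis list had 16 of 20 tested members positive (median 0.62). Anxa1 passed with edgeR, and DESeq2 called 7. The lysosome list had 27 of 29 positive (median 0.48), with Ctsk and Lgmn past the threshold of edgeR, and DESeq2 called 13 of its genes higher. Without lymphoma 35, edgeR called 8, and without lymphoma 10 it called 4. Its sum was 4502 to 6264 CPM in macrophage-high and 3407 to 5245 CPM in macrophage-low lymphomas. The differences within it were uneven. Ctss, the cathepsin of antigen-presenting cells, had lowest, median and highest levels of 45.1, 94.8 and 216 CPM in macrophage-high lymphomas, against 22.1, 28.6 and 73.8 CPM in macrophage-low lymphomas (log2 fold change 1.63 ± 0.34, edgeR adjusted p = 0.0754). The proteases Ctsd and Ctsb and the membrane protein Lamp1, which most cells express, had log2 fold changes of 0.65, 0.29 and 0.12 (edgeR adjusted p = 0.108, 0.722 and 0.758), and were named after their values were seen.

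Lipid handling genes were positive in 16 of 17 (median 1.01). Lgals3 passed with edgeR, and DESeq2 called 4. Gpnmb, a glycoprotein of lipid-laden macrophages, had lowest, median and highest levels of 27.6, 70.3 and 292 CPM in macrophage-high lymphomas, against 13, 23.2 and 39.8 CPM in macrophage-low lymphomas (log2 fold change 2.02 ± 0.50, edgeR adjusted p = 0.124). Apoe, the cholesterol carrier that macrophages secrete, had 134, 313 and 573 CPM in macrophage-high lymphomas, against 93.7, 195 and 255 CPM in macrophage-low lymphomas (log2 fold change 0.83 ± 0.30, edgeR adjusted p = 0.26). For Gpnmb and Apoe, 6 and 5 of the 7 macrophage-high lymphomas were above every macrophage-low lymphoma. Spp1, osteopontin, named after its values were seen, had a log2 fold change of -0.26 (edgeR adjusted p = 0.917).

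Iron and haem genes were positive in 14 of 15, with a median of 0.27, which was 0.52 without lymphoma 35. None passed with edgeR, 4 were higher at an unadjusted p under 0.05 and DESeq2 called 2. Without lymphoma 7, 1 passed with edgeR. Slc11a1 had lowest, median and highest levels of 3.93, 6.6 and 10.02 CPM in macrophage-high lymphomas, against 2.43, 2.88 and 3.66 CPM in macrophage-low lymphomas (log2 fold change 1.22 ± 0.24, edgeR adjusted p = 0.0723), without overlap. Hmox1, the haem oxygenase with which macrophages break down haem, had 13.1, 19.6 and 42.9 CPM in macrophage-high lymphomas, against 11.8, 22.2 and 35.3 CPM in macrophage-low lymphomas (log2 fold change 0.09 ± 0.32, edgeR adjusted p = 0.942). The Hmox1 ranges nearly coincided. Trf, transferrin, and Hfe, a regulator of iron uptake, had log2 fold changes of 1.08 and 1.22 (edgeR adjusted p = 0.199 and 0.175).

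Genes of alternative activation, the state that interleukin-4 induces in macrophages, were positive in 14 of 14 tested members, with a median of 1.42, and none passed with edgeR, while 5 were higher at an unadjusted p under 0.05 and DESeq2 called 4. Without lymphoma 7 and without lymphoma 35, 1 passed with edgeR in each case. Arg1, arginase, had lowest, median and highest levels of 19.7, 52.7 and 175 CPM in macrophage-high lymphomas, against 8.53, 17.5 and 42.3 CPM in macrophage-low lymphomas (log2 fold change 1.75 ± 0.48, edgeR adjusted p = 0.148). Of the 7 macrophage-high lymphomas 4 were above every macrophage-low lymphoma. Thymus held at most 0.143 CPM of Arg1, below each of the 21 lymphomas. Retnla, a secreted marker of the same state, had 1.38, 9.24 and 84.3 CPM in macrophage-high lymphomas, against 0, 0.295 and 5.64 CPM in macrophage-low lymphomas (log2 fold change 4.20 ± 1.23, edgeR adjusted p = 0.169). Its 5.64 CPM at the top of the macrophage-low range came from lymphoma 35, and without that lymphoma the log2 fold change was 6.17 (edgeR adjusted p = 0.0431). Retnla passed in 6 of the 26 alternative settings.

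Genes of inflammatory activation had a median of 0.01, with 5 of 9 tested members positive, and the median was 0.18 without lymphoma 7 and 0.13 without lymphoma 35. No member passed with edgeR or DESeq2, and none had an unadjusted p under 0.05. Nlrp3, a sensor of the inflammasome, had lowest, median and highest levels of 0.247, 0.837 and 1.7 CPM in macrophage-high lymphomas, against 0.541, 0.66 and 4.84 CPM in macrophage-low lymphomas (log2 fold change -0.91 ± 0.57, edgeR adjusted p = 0.531). The interferon-induced chemokine Cxcl9 and the costimulatory ligand Cd80 had log2 fold changes of 1.43 and -1.02 (edgeR adjusted p = 0.564 and 0.487). Nos2, the inducible nitric oxide synthase, was too low to be tested, at 0.234, 0.482 and 2.04 CPM in macrophage-high and 0.127, 0.239 and 0.678 CPM in macrophage-low lymphomas. Tnf, Il1b and Il6, the classic inflammatory cytokines, were at medians under 1 CPM in both groups.

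Chemokines and their receptors were positive in 15 of 16 tested members (median 1.13). With edgeR none passed, 8 were higher at an unadjusted p under 0.05 and DESeq2 called 2. Without lymphoma 7, 1 passed with edgeR. Ccl9, which myeloid cells of mice secrete, had lowest, median and highest levels of 6.95, 17.6 and 45.4 CPM in macrophage-high lymphomas, against 4.24, 7.35 and 9.42 CPM in macrophage-low lymphomas (log2 fold change 1.70 ± 0.36, edgeR adjusted p = 0.0754). Ccl6, a related chemokine, had 23.3, 46.5 and 188 CPM in macrophage-high lymphomas, against 9.28, 29.6 and 39.4 CPM in macrophage-low lymphomas (log2 fold change 1.34 ± 0.43, edgeR adjusted p = 0.214). For Ccl9, 6 of the 7 macrophage-high lymphomas were above every macrophage-low lymphoma, and for Ccl6 6. Ccr1, a receptor for chemokines of this family, had a log2 fold change of 1.45 (edgeR adjusted p = 0.175). Ccl2, which draws monocytes out of blood, was low, with 0.347, 0.637 and 1.68 CPM in macrophage-high and 0.208, 0.385 and 0.983 CPM in macrophage-low lymphomas (log2 fold change 1.01 ± 0.44, edgeR adjusted p = 0.343).

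Myeloid growth factors and their receptors were positive in 8 of 8 tested members (median 0.94). None passed with edgeR, 4 were higher at an unadjusted p under 0.05 and DESeq2 called 2. Csf2rb, the shared signalling chain of the receptors for GM-CSF and interleukin-3, had lowest, median and highest levels of 6.73, 12.5 and 25.3 CPM in macrophage-high lymphomas, against 2.59, 5.53 and 9.88 CPM in macrophage-low lymphomas (log2 fold change 1.25 ± 0.33, edgeR adjusted p = 0.135). Its paralog Csf2rb2, with which it may share reads, had a log2 fold change of 1.36 (edgeR adjusted p = 0.131). Csf1, a ligand of the receptor Csf1r, had 0.641, 1.67 and 3.12 CPM in macrophage-high lymphomas, against 0.279, 0.976 and 1.46 CPM in macrophage-low lymphomas (log2 fold change 1.02 ± 0.45, edgeR adjusted p = 0.352). Il34, the other ligand, was near 0, with 0, 0.0643 and 0.232 CPM in macrophage-high and 0, 0.143 and 1.21 CPM in macrophage-low lymphomas.

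**Figure D4:**
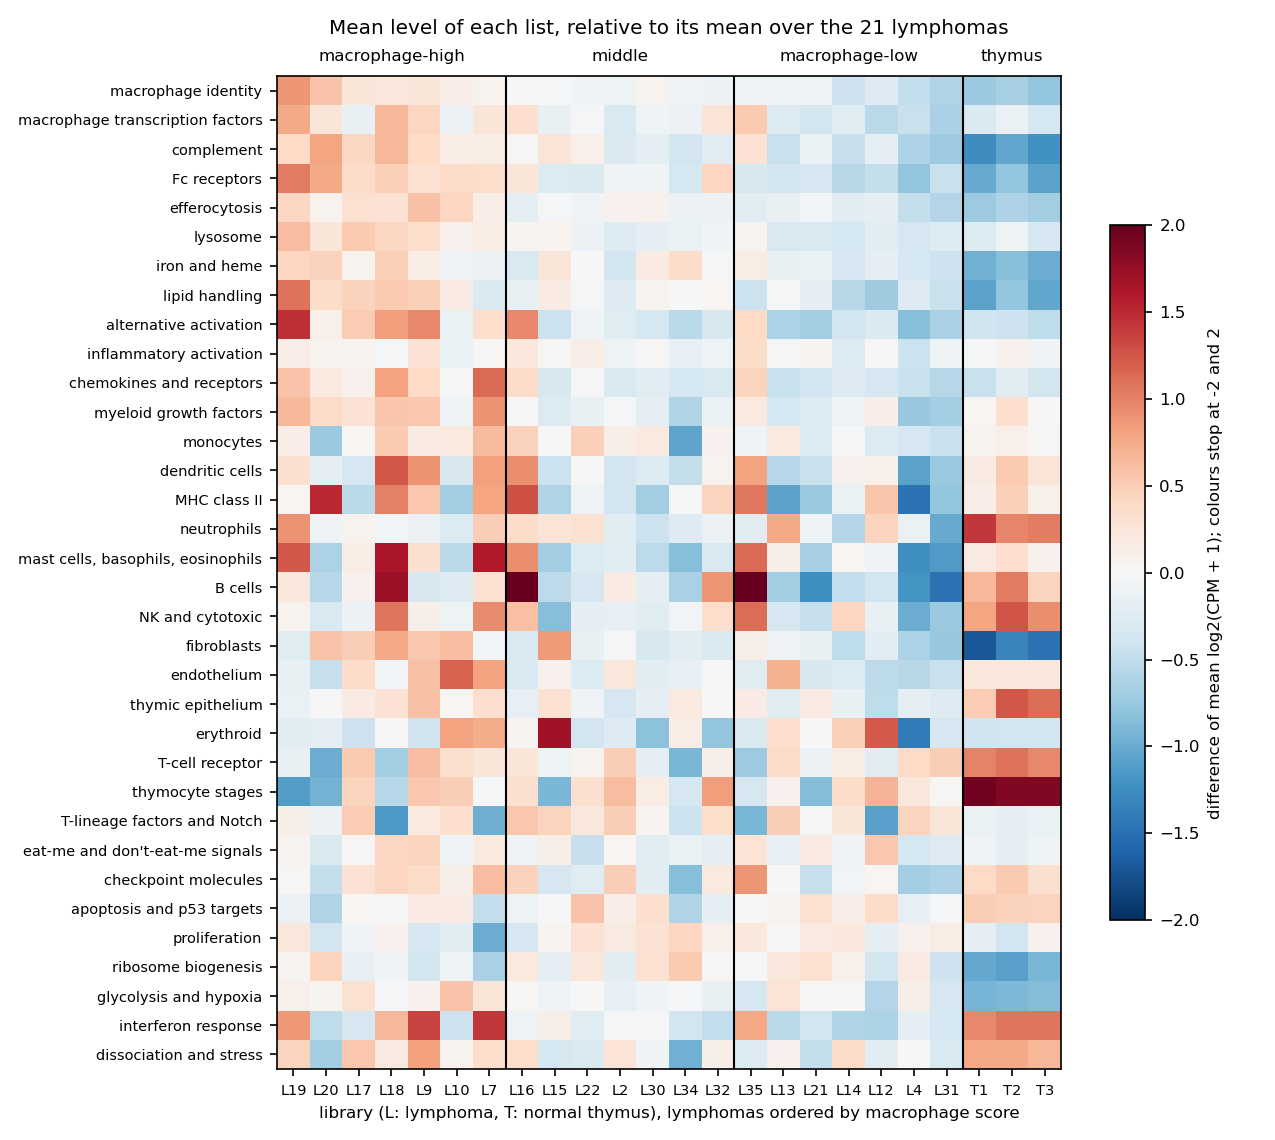
Mean log2(CPM + 1) of each of 34 gene lists (rows) in each library (columns), as the difference from that list's mean over the 21 lymphomas, with lymphomas ordered by macrophage score and thymus at the right. Most macrophage lists are red in the macrophage-high and blue in the macrophage-low lymphomas, and lymphoma 35, leftmost of the macrophage-low group, is red for the B-cell, NK and MHC class II lists.

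Markers of other cells were measured beside the macrophage genes, and their part in the macrophage results was not tested. Of 14 tested fibroblast and matrix genes, 13 were positive (median 1.19) and 12 were higher at an unadjusted p under 0.05. No member passed with edgeR, which called 1 without lymphoma 35, and DESeq2 called 4. Their mean level, in log2(CPM + 1), was 2.18 to 3.19 in macrophage-high and 1.66 to 2.54 in macrophage-low lymphomas, and 0.73 to 1.11 in thymus. Their summed level was 109 to 993 CPM in macrophage-high and 55.6 to 624 CPM in macrophage-low lymphomas. Col1a1, a chain of type I collagen, had lowest, median and highest levels of 5.69, 22.1 and 37.1 CPM in macrophage-high lymphomas, against 3.19, 8.4 and 11.7 CPM in macrophage-low lymphomas (log2 fold change 1.61 ± 0.38, edgeR adjusted p = 0.109). Its 1 macrophage-high lymphoma within the macrophage-low range was lymphoma 19, the one with the highest macrophage score. The fibrillin Fbn1 and the collagen chain Col6a2 had log2 fold changes of 1.27 and 1.24 (edgeR adjusted p = 0.128 and 0.159). Col1a2 was the 1 negative member, at -0.43 (edgeR adjusted p = 0.896). It had 435 CPM in lymphoma 17 and 437 CPM in lymphoma 14, where Col1a1 had 18.3 and 8.4 CPM. The summed level of the list thus weighs its members unevenly.

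Of 12 endothelial genes, 4 were tested (median 1.02), and Cldn5, a defining marker, had no count in any of the 14 lymphomas. Their sums were 105 to 273 CPM in macrophage-high and 119 to 269.9 CPM in macrophage-low lymphomas, most of it Pecam1, which leukocytes also express. Esam, Eng and Pecam1 had log2 fold changes of 1.88, 2.08 and 0.16 (edgeR adjusted p = 0.124, 0.433 and 0.864). Of 12 thymic epithelial genes, 6 were tested (median 0.75), with sums of 25.6 to 43.9 CPM in macrophage-high and 20.9 to 50.8 CPM in macrophage-low lymphomas. Krt8, a keratin, had lowest, median and highest levels of 0.614, 1.05 and 1.86 CPM in macrophage-high lymphomas, against 0.0655, 0.11 and 0.535 CPM in macrophage-low lymphomas (log2 fold change 2.24 ± 0.52, edgeR adjusted p = 0.108), without overlap at low level. Its partner Krt18 and Aire, the regulator of tissue antigens in the medulla, had log2 fold changes of 1.22 and 1.86 (edgeR adjusted p = 0.231 and 0.358). No endothelial or thymic epithelial gene passed with edgeR. At an unadjusted p under 0.05, 1 endothelial gene was higher, and 3 thymic epithelial genes were higher and 1 lower. DESeq2 called 1 higher in each list.

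Dendritic cell genes had a median of 1.24, with 11 of 13 tested members positive and sums of 55.7 to 153 CPM in macrophage-high and 17 to 115 CPM in macrophage-low lymphomas. Batf3, a factor of cross-presenting dendritic cells, had lowest, median and highest levels of 0.579, 1.24 and 6.44 CPM in macrophage-high lymphomas, against 0.0982, 0.262 and 0.82 CPM in macrophage-low lymphomas (log2 fold change 2.49 ± 0.62, edgeR adjusted p = 0.126). Itgax, the CD11c chain, which macrophages share, had 10.9, 22 and 44.1 CPM in macrophage-high lymphomas, against 1.36, 5.35 and 20.1 CPM in macrophage-low lymphomas (log2 fold change 1.85 ± 0.52, edgeR adjusted p = 0.159). For Batf3 and Itgax, 5 and 5 of the 7 macrophage-high lymphomas were above every macrophage-low lymphoma. Clec9a, a receptor for dead cells, had a log2 fold change of 1.62 (edgeR adjusted p = 0.335). MHC class II genes, 5 of 10 tested, had a median of 0.47 and sums of 85.9 to 724 CPM in macrophage-high and 23 to 519.7 CPM in macrophage-low lymphomas. Cd74, the invariant chain, had 81.2, 286 and 662 CPM in macrophage-high lymphomas, against 20.8, 45.5 and 485 CPM in macrophage-low lymphomas (log2 fold change 1.43 ± 0.69, edgeR adjusted p = 0.401). The top of its macrophage-low range was lymphoma 35. Ciita, the regulator of the class, and the chain H2-Ab1 had log2 fold changes of 1.14 and 0.47 (edgeR adjusted p = 0.612 and 0.803). No dendritic cell or MHC class II gene passed with edgeR. At an unadjusted p under 0.05, 3 dendritic cell genes and no MHC class II gene were higher, and DESeq2 called 2 dendritic cell genes and no MHC class II gene. Without lymphoma 35 Itgax passed, with a log2 fold change of 2.38 (edgeR adjusted p = 0.0476), and the median of the MHC class II genes was 0.99. Itgax passed in 4 of the 26 alternative settings.

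Monocyte genes had a median of 0.42 over 13 tested members and sums of 138 to 969.5 CPM in macrophage-high and 340.1 to 763 CPM in macrophage-low lymphomas. The members Hp, S100a4 and Cd300e had log2 fold changes of 1.57, 2.75 and 1.41 (edgeR adjusted p = 0.159, 0.283 and 0.522). Neutrophil genes, 6 of 14 tested, had a median of -0.21 and summed to 11.6 to 92 CPM in macrophage-high and 2.68 to 47.6 CPM in macrophage-low lymphomas. S100a8, a protein abundant in neutrophils, had lowest, median and highest levels of 0.225, 0.414 and 1.94 CPM in macrophage-high lymphomas, against 0.0982, 1.31 and 9.62 CPM in macrophage-low lymphomas (log2 fold change -2.20 ± 0.92, edgeR adjusted p = 0.323). The gelatinase Mmp9, highest in lymphoma 17, and Retnlg had log2 fold changes of 2.31 and 3.08 (edgeR adjusted p = 0.16 and 0.367). Mast cell, basophil and eosinophil genes, 4 of 11 tested, had a median of 1.23 and sums of 5.03 to 291 CPM in macrophage-high and 1.64 to 60.8 CPM in macrophage-low lymphomas. Cpa3, a mast cell protease, had 2.64, 31.3 and 283 CPM in macrophage-high lymphomas, against 0.393, 21.9 and 49.4 CPM in macrophage-low lymphomas (log2 fold change 2.14 ± 1.12, edgeR adjusted p = 0.446). It was highest in lymphomas 18 and 7. Hdc, which makes histamine, and Prg2 had log2 fold changes of 1.03 and 1.14 (edgeR adjusted p = 0.435 and 0.534). No gene of the monocyte, neutrophil and mast cell lists passed with edgeR. At an unadjusted p under 0.05, 2 monocyte genes were higher, 2 neutrophil genes were higher and 1 lower, and no gene of the mast cell list was higher or lower. DESeq2 called 1 monocyte and 1 neutrophil gene higher. Without lymphoma 35 the median was -1.37 over 7 tested neutrophil genes and 2.11 over the mast cell list.

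B-cell genes gave different signs on different scales. Of 10 tested members 2 were positive and the median log2 fold change was -0.19, while the median of their mean levels, in log2(CPM + 1), was 2.00 in macrophage-high and 1.22 in macrophage-low lymphomas. Without lymphoma 35, 10 of 10 were positive, with a median of 2.02, and none passed with edgeR, with 9 at an unadjusted p under 0.05. With all 14 lymphomas none passed with edgeR, none had an unadjusted p under 0.05, and DESeq2 called 2 higher. Their sums were 18.7 to 142 CPM in macrophage-high and 3.57 to 270.03 CPM in macrophage-low lymphomas. Cd22, a regulator of the B-cell receptor, had lowest, median and highest levels of 4.8, 6.69 and 19.7 CPM in macrophage-high lymphomas, against 0.556, 2.31 and 36.8 CPM in macrophage-low lymphomas (log2 fold change 0.28 ± 0.77, edgeR adjusted p = 0.92). Without lymphoma 35 its log2 fold change was 1.99 (edgeR adjusted p = 0.0643). Ebf1, a factor of the B lineage, had -0.36 (edgeR adjusted p = 0.911) and, without lymphoma 35, 1.70 (edgeR adjusted p = 0.129). Blk, a kinase of B cells that some thymocytes share, had -0.46 (edgeR adjusted p = 0.866).

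NK and cytotoxic genes, 6 of 12 tested, had a median of 0.59 and sums of 172 to 2751 CPM in macrophage-high and 99.1 to 1408 CPM in macrophage-low lymphomas. The granzyme gene Gzma, named after its values were seen, made up most of these sums, with 2704 CPM in lymphoma 18 and 88.4 CPM in lymphoma 31. The median of the list was -0.02 without lymphoma 7 and 1.03 without lymphoma 35. Tbx21, which encodes T-bet, the granule gene Nkg7 and Klrb1c, which encodes NK1.1, had log2 fold changes of 0.62, 1.28 and 1.20 (edgeR adjusted p = 0.764, 0.627 and 0.606). Erythroid genes had a median of 0.05 over 8 tested members, which was -0.04 without lymphoma 35 and -0.12 without lymphoma 7, with sums of 40.7 to 167 CPM in macrophage-high and 9.82 to 256 CPM in macrophage-low lymphomas. The red cell factor Klf1, the receptor Epor and the globin Hba-a2, whose near-identical copy may take some of its reads, had 0.28, 0.79 and -0.25 (edgeR adjusted p = 0.718, 0.671 and 0.915). No NK or erythroid gene passed with edgeR or DESeq2, and none had an unadjusted p under 0.05.

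Proliferation genes lay the other way. Of 20 tested members 19 were negative (median -0.35) and 8 were lower at an unadjusted p under 0.05. With edgeR none passed, and DESeq2 called 1 lower. Mki67, the Ki-67 antigen of cycling cells, had lowest, median and highest levels of 423, 737 and 944 CPM in macrophage-high lymphomas, against 883, 1060.4 and 1406 CPM in macrophage-low lymphomas (log2 fold change -0.57 ± 0.16, edgeR adjusted p = 0.158). Ccna2, cyclin A, had 161, 275 and 383 CPM in macrophage-high lymphomas, against 339, 377 and 446 CPM in macrophage-low lymphomas (log2 fold change -0.55 ± 0.16, edgeR adjusted p = 0.175). For Mki67 and Ccna2, 6 and 6 of the 7 macrophage-high lymphomas were below every macrophage-low lymphoma. Ccnb1, cyclin B, had 92.6, 155 and 193 CPM in macrophage-high lymphomas, against 179, 212 and 269.6 CPM in macrophage-low lymphomas (log2 fold change -0.48 ± 0.15, edgeR adjusted p = 0.195). Lymphoma 7 was the lowest of its group for Mki67, Ccna2 and Ccnb1, and without it 17 of 20 members were negative, with a median of -0.24 and 6 lower at an unadjusted p under 0.05. The replication genes Mcm5 and Pcna, named after their values were seen, had log2 fold changes of -0.23 and -0.04 (edgeR adjusted p = 0.665 and 0.942).

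Ribosome biogenesis genes were negative in 16 of 18 (median -0.11), and in 9 of 18 without lymphoma 7, with a median of -0.01. The nucleolar genes Utp20, Rrp12 and Nop2 had log2 fold changes of -0.40, -0.22 and -0.22 (edgeR adjusted p = 0.396, 0.579 and 0.635). Glycolysis and hypoxia genes were positive in 20 of 21 (median 0.24). The glucose transporter Slc2a1, the phosphofructokinase Pfkl and the hypoxia-induced Bnip3 had log2 fold changes of 0.60, 0.50 and 0.90 (edgeR adjusted p = 0.244, 0.307 and 0.234). No gene of the ribosome and glycolysis lists passed with edgeR or DESeq2, and 4 glycolysis and hypoxia genes were higher at an unadjusted p under 0.05.

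T-cell receptor genes had a median of 0.12 over 18 members and summed to 5489 to 8571 CPM in macrophage-high and 6369 to 8712 CPM in macrophage-low lymphomas. Cd3e, a chain of the receptor complex, had lowest, median and highest levels of 182, 333 and 382 CPM in macrophage-high lymphomas, against 159, 235 and 361 CPM in macrophage-low lymphomas (log2 fold change 0.39 ± 0.18, edgeR adjusted p = 0.379). The GTPase Rhoh and the adhesion receptor Cd2 had log2 fold changes of 0.17 and -0.68 (edgeR adjusted p = 0.531 and 0.596). Among thymocyte stage genes (median -0.27), the coreceptor chain Cd8b1 had 23.8, 50.4 and 177 CPM in macrophage-high lymphomas, against 98.4, 181 and 639 CPM in macrophage-low lymphomas (log2 fold change -1.68 ± 0.62, edgeR adjusted p = 0.261). For Cd8b1, 4 of the 7 macrophage-high lymphomas lay below every macrophage-low lymphoma, and thymus had 1289.9 to 1503 CPM. Cd4, the other coreceptor, had 14.4, 271 and 796 CPM in macrophage-high lymphomas, against 106, 404 and 1638 CPM in macrophage-low lymphomas (log2 fold change -0.65 ± 0.77, edgeR adjusted p = 0.786). Il7r, the interleukin-7 receptor, had a log2 fold change of 1.36 (edgeR adjusted p = 0.388). No gene of the receptor and stage lists passed with edgeR or DESeq2. At an unadjusted p under 0.05, 1 receptor gene was higher and 1 stage gene lower, beside 6.74% and 6.25% of all genes tested. The median of the receptor genes was 0.05 without lymphoma 35 and 0.02 without lymphoma 7.

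Factors of the T lineage and Notch genes had a median of -0.09 over 19 members, which was -0.19 without lymphoma 35 and -0.01 without lymphoma 7. None passed with edgeR, and 1 was higher at an unadjusted p under 0.05, beside 6.74% of all genes tested. DESeq2 called none, and 1 when run on the genes that edgeR kept. Gata3, which drives CD4 T-cell fate, had lowest, median and highest levels of 124, 229 and 444 CPM in macrophage-high lymphomas, against 68.2, 148 and 184 CPM in macrophage-low lymphomas (log2 fold change 0.87 ± 0.26, edgeR adjusted p = 0.18). Of the 7 macrophage-high lymphomas 5 were above every macrophage-low lymphoma. Tcf7 and Runx3 had log2 fold changes of -0.28 and -0.75 (edgeR adjusted p = 0.567 and 0.63). Notch1, a frequent oncogene of T-cell lymphoma, had 52.3, 725 and 1485 CPM in macrophage-high lymphomas, against 52.7, 986 and 2257 CPM in macrophage-low lymphomas (log2 fold change -0.39 ± 0.77, edgeR adjusted p = 0.881). Ikzf1, which encodes Ikaros, had 329, 560.2 and 1322 CPM in macrophage-high lymphomas, against 279.5, 603 and 1483 CPM in macrophage-low lymphomas (log2 fold change -0.22 ± 0.38, edgeR adjusted p = 0.865). Bcl11b, a tumour suppressor of the T lineage, had 180.03, 365 and 505 CPM in macrophage-high lymphomas, against 252, 395 and 629 CPM in macrophage-low lymphomas (log2 fold change -0.22 ± 0.25, edgeR adjusted p = 0.782). The ranges of these 3 overlapped over most of their length.

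Oncogenes and tumour suppressors known from such lymphomas lay in overlapping ranges. Myc had lowest, median and highest levels of 149, 249.5 and 537 CPM in macrophage-high lymphomas, against 145, 322 and 478 CPM in macrophage-low lymphomas (log2 fold change -0.05 ± 0.30, edgeR adjusted p = 0.962). Trp53, which encodes p53, had 230.5, 301 and 335 CPM in macrophage-high lymphomas, against 241, 304 and 334 CPM in macrophage-low lymphomas (log2 fold change -0.02 ± 0.10, edgeR adjusted p = 0.952). Cdkn2a, a tumour suppressor locus, had 0.446, 4.97 and 76.6 CPM in macrophage-high lymphomas, against 1.04, 5.82 and 74.5 CPM in macrophage-low lymphomas (log2 fold change 0.26 ± 1.09, edgeR adjusted p = 0.95). Within each group Cdkn2a spread far more than the medians differed. Grb10, an adaptor of growth factor receptors, had 0.161, 0.511 and 10.1 CPM in macrophage-high lymphomas, against 0.12, 0.333 and 22.2 CPM in macrophage-low lymphomas (log2 fold change -1.35 ± 1.23, edgeR adjusted p = 0.7). Apoptosis genes and p53 targets were negative in 15 of 18 tested members (median -0.41). No member passed with edgeR or DESeq2. At an unadjusted p under 0.05, 1 was higher and 2 lower, beside 6.74% and 6.25% of all genes tested. The p53 target Ccng1 and the death receptor Fas had log2 fold changes of -0.55 and -1.50 (edgeR adjusted p = 0.313 and 0.329).

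The signals by which cells invite or block phagocytosis had a median of 0.06 over 12 tested members, which was 0.16 without lymphoma 35. With edgeR none passed, 3 were higher and 2 lower at an unadjusted p under 0.05, and DESeq2 called 2 higher. With edgeR, 1 passed without lymphoma 35, which was Sirpa, 1 without lymphoma 7 and 1 without lymphoma 10. Cd47, the don't-eat-me ligand of Sirpa, had lowest, median and highest levels of 72.8, 88.1 and 171 CPM in macrophage-high lymphomas, against 73.1, 115 and 232 CPM in macrophage-low lymphomas (log2 fold change -0.17 ± 0.26, edgeR adjusted p = 0.846). The members with separate ranges, Sirpa and Pirb, are genes of phagocytes. Checkpoint molecules had a median of 0.53 over 13 tested members, which was 0.85 without lymphoma 35. None passed with edgeR or DESeq2, and none had an unadjusted p under 0.05. Vsir, which encodes VISTA, and Ctla4 had log2 fold changes of 0.87 and 2.47 (edgeR adjusted p = 0.412 and 0.446).

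Interferon response genes had a median of 0.73 over 21 tested members, 18 of them positive. No member passed with edgeR, 7 were higher at an unadjusted p under 0.05 and DESeq2 called 3. Oas1a had lowest, median and highest levels of 0.546, 9.53 and 31.9 CPM in macrophage-high lymphomas, against 0.196, 0.385 and 4.74 CPM in macrophage-low lymphomas (log2 fold change 3.23 ± 0.97, edgeR adjusted p = 0.177). The macrophage-high group was itself divided. Lymphomas 9, 7, 19 and 18 had more Oas1a than every macrophage-low lymphoma, while lymphomas 10, 17 and 20 lay within their range. Thymus had 4.45 to 4.5 CPM, inside the range of each group. The macrophage-low range reached that level only through lymphoma 35, at 4.74 CPM, and all other macrophage-low lymphomas lay below thymus. Oas2, a related sensor, and Rtp4, also induced by interferon, had log2 fold changes of 2.77 and 2.23 (edgeR adjusted p = 0.159 and 0.225).

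Genes that tissue dissociation and stress induce had a median of 0.48 over 13 tested members, 12 of them positive. With edgeR none passed, 4 were higher and 1 lower at an unadjusted p under 0.05, and DESeq2 called 2 higher. The immediate early genes Jun and Atf3 were positive and the chaperone Dnajb1 negative. Jun had 1.94, 14.2 and 18 CPM in macrophage-high lymphomas, against 0.884, 2.88 and 6.87 CPM in macrophage-low lymphomas (log2 fold change 1.68 ± 0.50, edgeR adjusted p = 0.173). Atf3 had 1.82, 7.36 and 13.5 CPM in macrophage-high lymphomas, against 1.34, 2.03 and 3.41 CPM in macrophage-low lymphomas (log2 fold change 1.62 ± 0.44, edgeR adjusted p = 0.143). Dnajb1 had a log2 fold change of -0.35 (edgeR adjusted p = 0.242). The part of handling in the macrophage results was not tested.

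**Figure D5:**
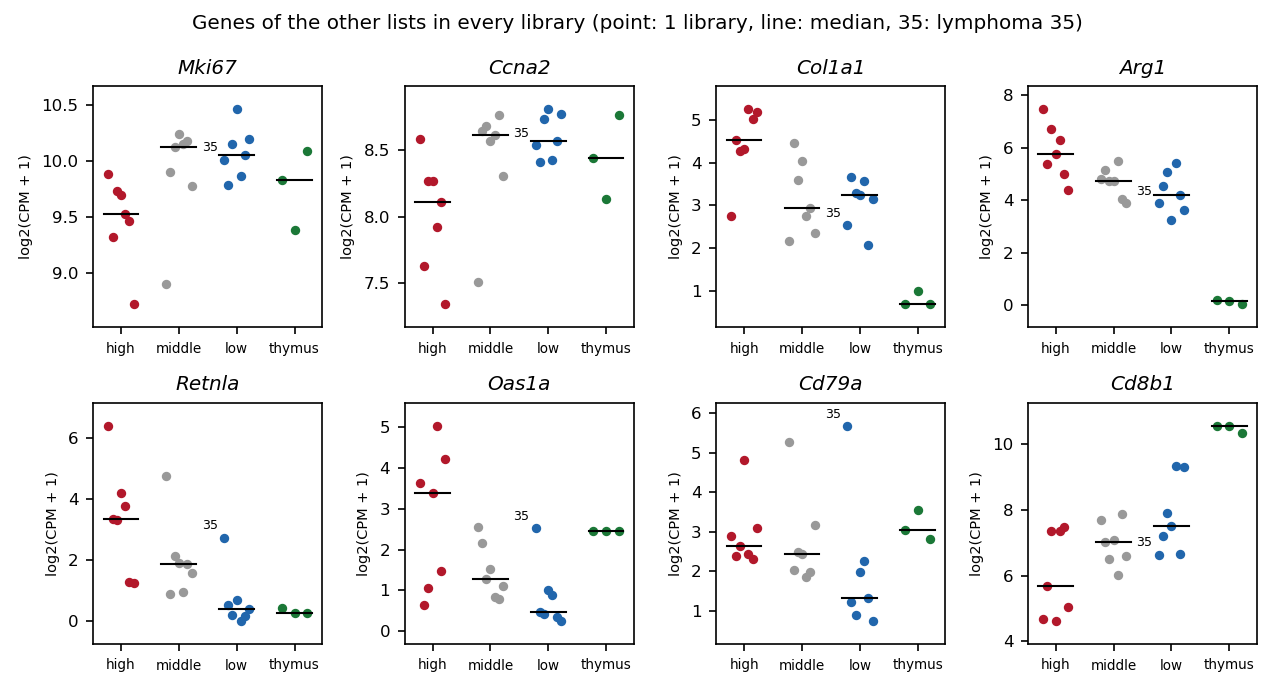
Levels, in log2(CPM + 1) (y axes, which do not start at 0), of 8 genes named in the text in each library of the macrophage-high, middle and macrophage-low lymphomas (7 each) and normal thymus (3), with points for libraries, lines for medians and 35 marking lymphoma 35. Mki67 and Ccna2 lie lower in most macrophage-high than in macrophage-low lymphomas, Arg1 is near 0 in thymus, and lymphoma 35 tops the macrophage-low group for Retnla, Oas1a and Cd79a.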

How the data were processed

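RNA of 21 thymic lymphomas and 3 normal thymuses was sequenced. The submitters' processing notes name the trimmer cutadapt 1.9.1, the aligner HISAT2 2.0.1, the counter HTSeq 0.6.1, and also SAMtools and edgeR, with the build GRCm38.p6. Whether counting used strand is not stated. The authors deposited raw counts of 21878 gene symbols, which were tested, and TPM values, which served to rank the lymphomas in 1 alternative. The authors' filtered count tables gave the Ikzf1 mutation set through their column names, and their counts matched those of the full table.

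The 6 ranking genes formed the score from CPM of the raw column sums. Counts were scaled by TMM over all 24 libraries, filtered with filterByExpr over the 14 lymphomas (11822 genes kept) and tested with edgeR 4.0.16 (glmQLFit and glmQLFTest, R 4.3.3, no covariate, Benjamini-Hochberg threshold 0.05). The fit was tested on simulated data. Alternatives were DESeq2 1.42.0, limma-voom 3.58.1, other filters, scalings, covariates, rankings and group sizes, and each lymphoma left out. A list's level is the mean log2(CPM + 1) of its genes. Single measures were compared by exact permutation, and coordinates came from GENCODE M21, where 20611 of the symbols were placed. Total counts are in the report, and counting error was not compared with the spread between lymphomas. A deposited CPM table of 10 lymphomas, picked on Grb10, stayed out.

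The members and the gene lists were chosen with earlier results of these data known. Genes are named by a rule: 26 fixed genes, genes past the threshold with at least 10 CPM in the higher group (up to 15 each way), and of each list up to 6 members past it or, where none passed, the 3 with the smallest p. Some genes that the rule names are not reported here.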

Additional observations from a re-analysis of the deposited data

Results flagged for a closer look

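For each named gene, the gap between the most extreme lymphoma of a group and its nearest neighbour was divided by the range of the group on the log2(CPM + 1) scale, and ratios above Dixon's 95% critical value for 7 samples are given. Of 238 groups examined 25 exceeded it, and chance gives about 1 in 20.

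Lymphoma 35 was the one set apart in 9 of the 17 cases in the macrophage-low group, in each as the highest. It had 6.92 CPM of the macrophage factor Spi1 (ratio 0.702), 8.28 CPM of Hfe (0.575) and 5.64 CPM of Retnla (0.758). Of B-cell genes it had 7.03 CPM of Ebf1 (0.825) and 36.8 CPM of Cd22 (0.662). It also had 9.42 CPM of the granule gene Nkg7 (0.587), 7.38 CPM of the neutrophil gene Retnlg (0.694), 2.93 CPM of Aire (0.61) and 4.74 CPM of Oas1a (0.673).

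In the other macrophage-low lymphomas, lymphoma 21 was highest for Trem2 at 0.393 CPM (ratio 0.57) and for Ccl2 at 0.983 CPM (0.647). Lymphoma 13 was highest for the endothelial gene Eng at 19.4 CPM (0.784), lymphoma 4 for Cd2 at 11.2 CPM (0.571) and lymphoma 12 for the T-lineage factor Tcf7 at 4636 CPM (0.689). Lymphoma 31 was lowest for Csf2rb2 at 1.60 CPM (0.576) and for Gata3 at 68.2 CPM (0.611), and lymphoma 14 for Fcgrt at 2.79 CPM (0.593).

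Among the macrophage-high lymphomas, lymphoma 7 was highest for S100a8 at 1.94 CPM (ratio 0.639), Grb10 at 10.1 CPM (0.709) and Batf3 at 6.44 CPM (0.571). Lymphoma 19 was highest for Ccl6 at 187.5 CPM (0.59) and lowest for Col1a1 at 5.69 CPM (0.609). Lymphoma 17 was highest for Mmp9 at 88.6 CPM (0.577), lymphoma 18 for Ebf1 at 2.80 CPM (0.618), and lymphoma 20 was lowest for Cd3e at 182.1 CPM (0.572).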

How the results depend on the processing

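The counts of genes past the threshold moved with most settings, while the direction of all 11 called genes stayed in all 26 alternatives. The values for higher, lower and macrophage-list higher genes were 9, 2 and 6. With DESeq2 size factors they were 10, 2 and 6, and with the DESeq2 test, which was run without the edgeR filter on low counts, 304, 139 and 58. DESeq2 on the genes that edgeR kept, chosen after seeing the data, gave 224, 128 and 57. With limma-voom they were 0, 0 and 0, with 1442 genes at an unadjusted p under 0.05, and with no filter on low counts 0, 0 and 0, with 2344 such genes. The Ikzf1 mutation set as a term gave 0, 0 and 0, with 1637 such genes, and log2 total count as a term 1, 0 and 1. The 5 highest against the 5 lowest lymphomas gave 38, 1 and 20, and all 21 lymphomas in 3 groups 73, 18 and 28. Ranking on TPM of the same genes gave 2, 1 and 1, and ranking on Cd68, Csf1r and C1qa 39, 8 and 17. The score as a number over all 21 lymphomas, chosen after seeing the data, gave 206, 52 and 61. Leaving out 1 lymphoma at a time gave 0 to 37 higher genes, 0 to 4 lower genes and 0 to 17 macrophage-list genes, with 37, 4 and 17 without lymphoma 35. Where no higher gene was called in these, 1250 to 1663 genes had an unadjusted p under 0.05. Apart from the tool, filter or samples changed, the cause was not tested. The differences in total counts and in the medians of chromosomes 11 and 15 kept their side of the threshold in each alternative run. No paired analysis was made because the labels give no pairing of macrophage-high with macrophage-low lymphomas, and thymus is in no fit. Low levels, under about 1 CPM, limit Trem2, Nos2 and Il34. They also limit lists with many members too low to test, such as 8 of 12 endothelial, 8 of 14 neutrophil and 7 of 11 mast cell list genes.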
